A study of Mus musculus with 18 samples.

Results

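The Wnt receptors read here were 10 genes: the Frizzleds Fzd1, Fzd2, Fzd4, Fzd5, Fzd6, Fzd7 and Fzd8, the co-receptors Lrp5 and Lrp6, and the receptor tyrosine kinase-like gene Ryk. Every array probe carrying one of these names, older names included, was taken, which gave 16 probes of 41174 on the array, or 10 of 28919 genes and unnamed transcripts. Fzd2, Fzd5, Fzd7, Fzd8, Lrp6 and Ryk had 2 probes each and Fzd1, Fzd4, Fzd6 and Lrp5 had 1. Probe 1 of a gene is its brightest probe on the KI arrays and represents the gene in counts. The second Lrp6 probe is listed under the older name C030016K15Rik.

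RNA of 9 samples was extracted from whole mammary tissue or tumour, flash frozen, of female FVB/N mice, in 3 groups. KI was 5 single mammary tumours of ErbB2 knock-in mice, numbered KI 1 to KI 5. NIC was 2 tumour pools, each made of equal amounts of RNA from 5 tumours. The last group was 2 normal mammary glands, whose labels name no transgene. The identifier of gland 2 ends in PI, which the labels do not explain and that of gland 1 lacks, and whether the glands differ in state was not tested. Ages were not used here. As background from outside the labels, KI mice carry an activated ErbB2 allele that stays under the gene's own promoter and is switched on by Cre from the MMTV promoter, which is active mainly in mammary epithelium, and NIC mice express activated ErbB2 and Cre from 1 MMTV-driven transcript. A pool averages its tumours, so the spread between pools is not the spread between NIC tumours. Each sample shared its arrays with a universal mouse reference RNA, once in either dye, on 18 arrays in all, and each value below is the mean of that dye pair as log2 of sample over reference. Such a ratio compares samples for 1 probe and gives no order of abundance between genes.

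Frizzled proteins span the membrane and bind Wnt ligands through a cysteine-rich domain outside the cell. Lrp5 and Lrp6 join a Frizzled bound to Wnt, and together they recruit Dishevelled and Axin, which lets beta-catenin build up and switch on target genes with TCF/LEF factors. Some Frizzleds, Fzd6 among them, are better known for planar cell polarity than for beta-catenin signalling, and Ryk binds Wnt through a WIF domain. In the mammary gland Wnt signalling supports ductal growth and basal stem cells, and ectopic Wnt expression there causes tumours in mice.

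Erbb2 is the gene both tumour models activate. On its brightest probe it measured 0.30 to 1.01 in KI tumours, 0.39 and 0.81 in NIC pools and -1.08 and -1.29 in glands. The difference of NIC pools from glands was 1.79 on that probe, and 0.39 and 1.82 on its other probes. The tissue makeup differed as well. The median of 6 luminal epithelial markers lay between 2.16 and 2.92 in KI tumours, at 2.43 and 2.48 in NIC pools and at 0.44 and 0.83 in glands. The median of 6 adipocyte markers lay between -0.06 and 0.28 in KI tumours, at 0.32 and 0.02 in NIC pools and at 4.24 and 3.66 in glands. For 6 endothelial markers it was 0.73 to 2.25 in KI tumours, 0.94 and 0.24 in NIC pools and 3.42 and 3.37 in glands. In NIC pools against glands the calls defined below were 4 of 6 higher for luminal epithelium, 3 of 6 lower for basal epithelium, 4 of 6 lower for adipocytes, 2 of 6 lower for fibroblasts, 4 of 6 lower for endothelium, 2 of 6 lower for leukocytes, 2 of 3 lower for skeletal muscle and 2 of 3 higher for peripheral nerve. Over all genes 8.46% were called higher and 9.51% lower in the same comparison. In whole tissue, fewer cells of a type and less RNA per cell cannot be told apart. The part of tissue makeup in the receptor differences was not tested.

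The arrays of glands and NIC pools share 1 deposited value table and those of KI tumours have another. Table and KI group cannot be told apart, so tests were run for NIC against normal only. That comparison asks how the receptor repertoire of NIC tumours differs from that of the normal gland. A probe was called at an adjusted p under 0.05 in limma over all probes. By brightest probe 4 of the 10 receptors were called. Lrp5, Fzd6 and Fzd2 were higher in NIC pools and Fzd1 was lower. Over all genes the share called by brightest probe was 18% (8.46% higher and 9.51% lower). Counting probes, 5 of the 16 receptor probes were called (4 higher, 1 lower), beside 18.4% of all probes (9.82% higher and 8.62% lower). The median difference of the 10 receptors was 0.61, beside -0.057 for all 28919 brightest probes.

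**Figure D1:**
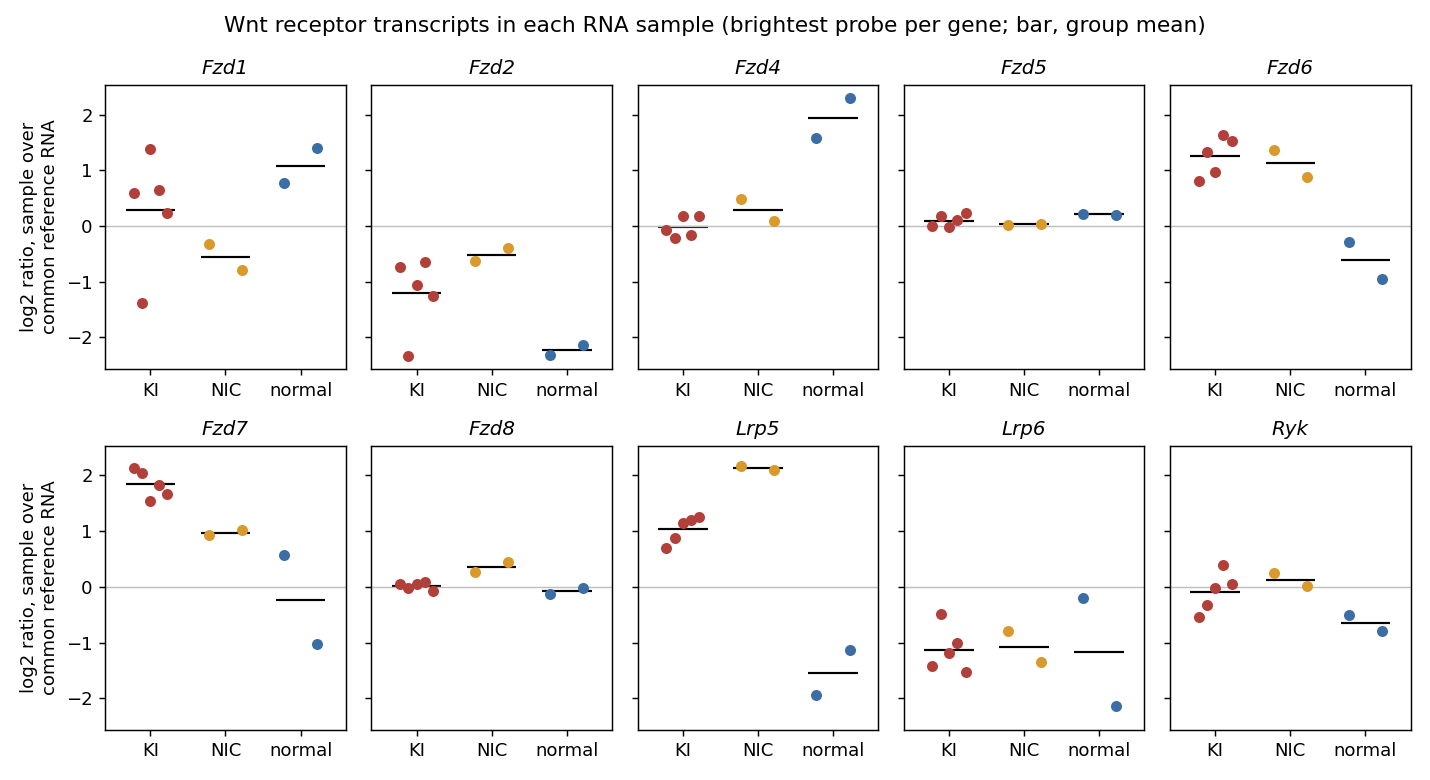
Levels of the 10 receptors by brightest probe. The vertical axis is log2 of sample over reference RNA, each point is 1 RNA sample (5 KI tumours, 2 NIC pools, 2 normal glands) and bars are group means. Lrp5 and Fzd6 lie above the glands in both tumour groups, Fzd4 lies below them, and Fzd1 spreads from -1.39 to 1.39 among KI tumours.

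Lrp5, the co-receptor also known for its part in bone mass, had the largest difference among the 10 receptors. It measured 2.17 and 2.11 in the NIC pools, against -1.95 and -1.13 in the normal glands. The pools lay close together and far above both glands. The difference was 3.68 ± 0.32 (SE), or 12.8-fold higher in NIC pools (adjusted p = 0.0154, limma). In KI tumours Lrp5 measured 0.70, 0.88, 1.15, 1.19 and 1.25, so all 5 lay above both glands and below both NIC pools. The KI mean exceeded the gland mean by 2.57, a 5.95-fold ratio, and was 1.11 lower than the NIC mean. On 1 of the 10 KI arrays the Lrp5 spot had been marked as an outlier by the scanner software.

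Lrp6, the closely related co-receptor, gave values that depended on the probe. Probe 1 measured -0.80 and -1.35 in NIC pools, against -0.19 and -2.14 in the glands. The glands enclosed both pools, and the difference was 0.09 ± 0.76 (adjusted p = 0.941), with a 95% interval of -2.14 to 2.33 that leaves a change of several fold either way undetected. Probe 2 measured 2.00 and 1.89 in NIC pools, against 1.23 and 0.74 in the glands, a difference of 0.96 ± 0.21 (adjusted p = 0.0602) that was not called. On probe 2 the 5 KI tumours (1.24 to 1.83) lay above both glands and below both pools. On probe 1 they lay between -1.52 and -0.50, within the range of the glands.

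Among the Frizzleds, Fzd6 was higher in NIC pools. It measured 1.37 and 0.88 in the pools, against -0.28 and -0.95 in the glands, a difference of 1.74 ± 0.33 or 3.34-fold (adjusted p = 0.0473, limma). The KI tumours measured 0.80, 1.33, 0.97, 1.63 and 1.52. All of them lay above both glands, by 1.87 between the means, and they overlapped the NIC pools.

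Fzd2, a receptor used by Wnt5a and by ligands of the beta-catenin branch, was called higher on 1 of its 2 probes. Probe 1 measured -0.63 and -0.40 in NIC pools, against -2.31 and -2.14 in the glands, a difference of 1.71 ± 0.14 or 3.28-fold (adjusted p = 0.0143). Probe 2, which was dimmer, measured -2.29 and -1.55 in the pools, against -1.91 and -1.80 in the glands, a difference of -0.07 ± 0.30 (adjusted p = 0.89). The 2 probes therefore gave different answers, and the mean of both was not called (0.82, adjusted p = 0.0683). In KI tumours probe 1 measured -0.74, -2.33, -1.06, -0.65 and -1.26. All 5 lay below both NIC pools, KI 4 by a narrow margin (-0.65 against -0.63 in NIC 1), and 4 of them lay above both glands, KI 2 being the exception. Probe 2 measured -0.15, -2.40, -1.60, -1.22 and -1.82 in KI tumours, which overlapped both groups, and its KI mean was 0.48 above the NIC mean, so the order of KI and NIC turned with the probe here too.

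Fzd7, a receptor associated with stem and basal epithelial cells, also differed by probe. The bright probe 1 measured 0.93 and 1.02 in NIC pools, against 0.57 and -1.03 in the glands, and with the glands so far apart its difference of 1.21 ± 0.61 was not called (adjusted p = 0.239). The dimmer probe 2 measured -0.21 and -0.48 in the pools, against -2.30 and -2.39 in the glands, and was called higher by 2.00 ± 0.14 or 4.01-fold (adjusted p = 0.0119). Both probes had a positive sign. In KI tumours probe 1 measured 2.14, 2.04, 1.55, 1.83 and 1.67, above every NIC pool and every gland. Its KI mean was 2.08 above that of the glands and 0.87 above that of the pools. Probe 2 placed the KI tumours (-1.63 to -0.46) above both glands by 1.28 between the means, but 0.72 below the mean of the NIC pools, with overlap. The order of the KI and NIC means for Fzd7 thus turned with the probe.

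Fzd1 was the receptor called lower. It measured -0.33 and -0.79 in NIC pools, against 0.77 and 1.41 in the glands, a difference of -1.64 ± 0.31 or 3.12-fold (adjusted p = 0.0481, limma). The KI tumours measured 0.59, -1.39, 1.39, 0.65 and 0.24 and overlapped both other groups.

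Fzd4, the receptor for Norrin in vessels as well as for Wnt, measured 0.49 and 0.10 in NIC pools, against 1.58 and 2.30 in the glands. The difference of -1.65 ± 0.32 was as large as that of Fzd1 and missed the threshold (adjusted p = 0.0505, limma). In KI tumours Fzd4 measured -0.07, -0.22, 0.19, -0.16 and 0.18, a narrow band below both glands by 1.96 between the means. The endothelial and adipocyte medians given above were likewise higher in both glands than in every tumour sample. The same held for the medians of fibroblast markers (0.54 and 0.28 in glands, at most 0.23 in tumour samples) and leukocyte markers (0.37 and 0.04, at most -0.20). Single markers differed on this. The KI mean lay above the gland mean for Col1a1, Col1a2, Cd68, Itgam and Fabp4, and below it for the other markers of these lists. The part of these cell types in the Fzd4 values was not tested.

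Promoter sequences from RefSeq (assembly GRCm38.p6) were held for 5 of the 10 receptors. Those of Fzd1, Fzd4 and Fzd7 are shown because, among those held, these are the receptors with the widest KI spread, the clearest KI level below the glands and the clearest KI level above them. Each is the 250 bases before the annotated start, on the gene's own strand. Capitals mark 3 motifs searched on both strands. The core bound by TCF/LEF factors is CTTTGA, which reads as TCAAAG on the opposite strand. The box bound by NF-Y is CCAAT, which reads as ATTGG there. The GC box bound by Sp factors is GGGCGG, which reads as CCGCCC there. Some GC boxes overlap one another.
Fzd1, chr5:4758217-4758466, minus strand: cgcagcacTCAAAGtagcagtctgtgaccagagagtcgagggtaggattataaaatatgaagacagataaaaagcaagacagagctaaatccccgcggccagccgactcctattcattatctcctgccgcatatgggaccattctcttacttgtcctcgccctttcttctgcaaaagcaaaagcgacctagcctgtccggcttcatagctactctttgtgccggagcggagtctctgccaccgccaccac
Fzd4, chr7:89404116-89404365, plus strand: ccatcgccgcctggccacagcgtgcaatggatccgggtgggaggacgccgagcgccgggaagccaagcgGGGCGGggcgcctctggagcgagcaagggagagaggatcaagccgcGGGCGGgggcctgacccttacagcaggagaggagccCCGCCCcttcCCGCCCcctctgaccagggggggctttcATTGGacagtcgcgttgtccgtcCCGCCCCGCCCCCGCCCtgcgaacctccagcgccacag
Fzd7, chr1:59481897-59482146, plus strand: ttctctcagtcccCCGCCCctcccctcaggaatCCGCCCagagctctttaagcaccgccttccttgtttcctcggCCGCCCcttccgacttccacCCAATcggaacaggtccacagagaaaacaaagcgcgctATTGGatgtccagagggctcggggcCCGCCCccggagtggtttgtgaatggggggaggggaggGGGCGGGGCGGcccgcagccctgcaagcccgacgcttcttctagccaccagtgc
The Fzd1 window held 1 TCF/LEF core and no CCAAT or GC box, and 51.2% of its bases were G or C. The Fzd4 window held 7 GC boxes and 1 CCAAT box at 72.8% G or C, and the Fzd7 window 6 GC boxes and 2 CCAAT boxes at 65.2%. Neither of them held the TCF/LEF core in the form searched. Variants of that core were not searched in any window. Of 32851 promoter windows of this length in the table, 13.8% held the TCF/LEF core, 33.8% a CCAAT box and 32.7% a GC box. A match is a run of letters and not a measured binding site.

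No probe of Fzd5 or Fzd8 was called. Fzd5, a receptor known for its role in the gut and eye, measured between -0.33 and 0.24 over both probes and all 9 samples. Its NIC differences were -0.18 ± 0.09 on probe 1 (adjusted p = 0.243) and 0.29 ± 0.12 on probe 2 (adjusted p = 0.189). Fzd8 measured between -0.13 and 0.62 in the same way, with its highest value in normal gland 2 on probe 2. Its NIC differences were 0.43 ± 0.12 on probe 1 (adjusted p = 0.0875) and -0.38 ± 0.15 on probe 2 (adjusted p = 0.168). For both genes the sign of the NIC difference turned with the probe. The KI tumours lay above both glands on Fzd5 probe 2 and below both on Fzd8 probe 2. On probe 1 of either gene they overlapped the glands. The Fzd8 probes were the dimmest of the 16, with mean log2 signals of 7.24 and 6.64 on KI arrays, beside 8.08 to 12.2 for the probes of the other genes except the second Fzd5 probe at 7.71.

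Ryk measured 0.25 and 0.01 on probe 1 in NIC pools, against -0.50 and -0.80 in the glands, a difference of 0.78 ± 0.17 that was not called (adjusted p = 0.0611). Probe 2 gave 0.54 ± 0.28 (adjusted p = 0.243). The KI tumours ranged from -0.54 to 0.40 on probe 1 and overlapped both groups. Unlike for Fzd2, Fzd5, Fzd7, Fzd8 and Lrp6, the 2 Ryk probes ordered most samples alike, with KI 4 highest on both.

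**Figure D2:**
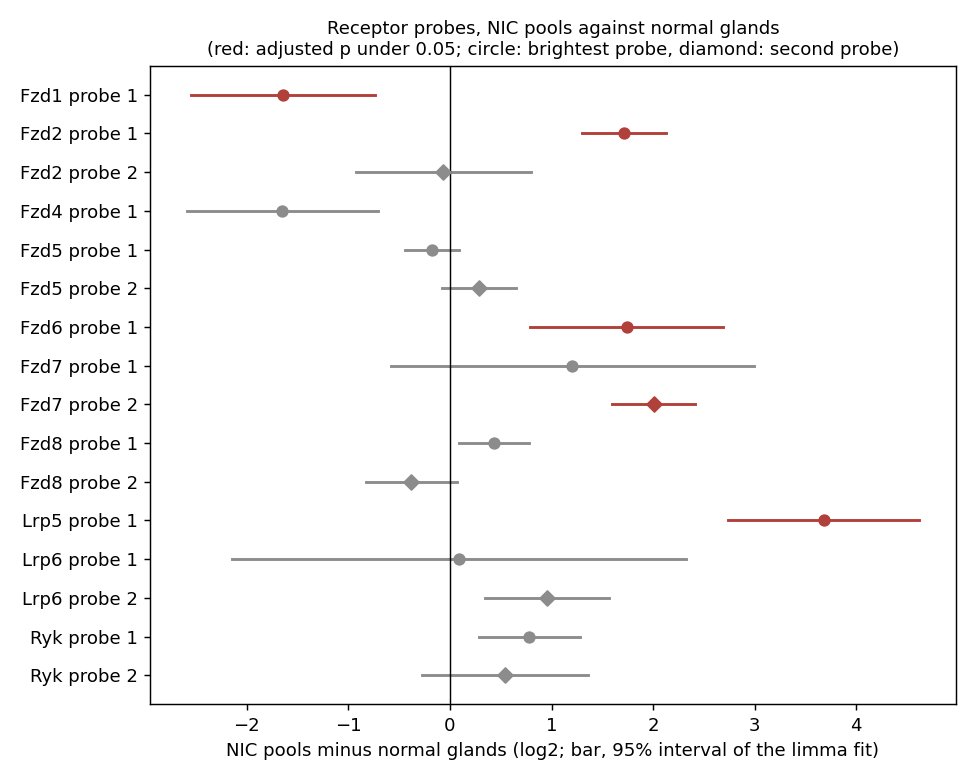
Difference between NIC pools and normal glands for the 16 receptor probes. The horizontal axis is the log2 difference, bars are 95% intervals of the limma fit over 4 RNA samples, and red marks an adjusted p under 0.05. Lrp5 lies furthest from 0 at 3.68, and the Fzd4 interval excludes 0 although its adjusted p of 0.0505 missed the threshold.

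**Figure D3:**
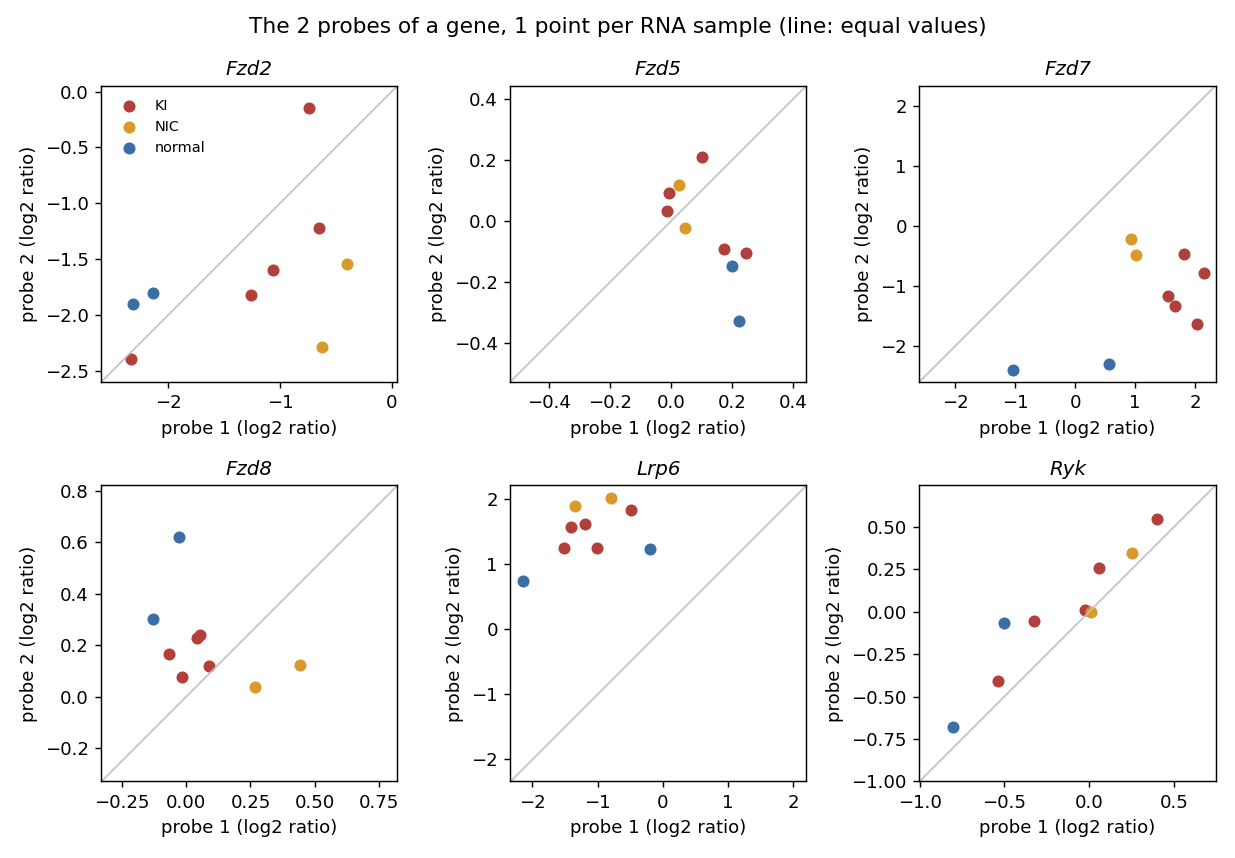
The 2 probes of the 6 receptors that have them. Axes are log2 of sample over reference on probe 1 (horizontal) and probe 2 (vertical), each point is 1 RNA sample coloured by group, and the grey line marks equal values. For Fzd7 the KI points lie right of the NIC points on probe 1 while 4 of the 5 lie below both pools on probe 2, and for Fzd2 the pools separate from the glands on probe 1 alone.

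The limits of the NIC comparison were those of 4 RNA samples. With either NIC pool left out limma called 0 of 41174 probes, with 9364 (without NIC 1) and 10592 (without NIC 2) at an unadjusted p under 0.05, of which 6 and 7 were receptor probes. Without normal gland 1 the brightest probes called were those of Fzd2, Fzd7 and Lrp5, and without gland 2 those of Fzd2 and Lrp5, so Fzd1 and Fzd6 were not called in either case. Their differences stayed of similar size, at -1.96 for Fzd1 and 2.07 for Fzd6 without gland 1 (adjusted p = 0.0604 and 0.0605) and at -1.32 and 1.40 without gland 2 (adjusted p = 0.0943 and 0.0939).

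The second question was where single KI tumours lie beside the glands and the pools. By brightest probe all 5 KI tumours lay above both glands for Fzd6, Fzd7 and Lrp5, 3 of 10 receptors, beside 23.7% of all genes. They lay below both glands for Fzd4 alone, 1 of 10, beside 30.4%. Against the NIC pools all 5 lay above for Fzd7, beside 16.4% of all genes, and below for Fzd2, Fzd8 and Lrp5, beside 14.7%. The count above the glands, 3 of 10, is near the share of all genes, and none of these counts was tested. For Fzd8 the KI values (-0.07 to 0.09) and the NIC values (0.27 and 0.44) differed by 0.34 between the means on probe 1. That KI minus NIC difference was -0.06 on Cy5 arrays alone and -0.61 on Cy3 arrays alone, and on probe 2 it was 0.08, with overlap.

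Over all 5 KI tumours the receptors with the widest spread were Fzd1 and Fzd2. Fzd1 had an SD of 1.03 over the 5 tumours, more than 98% of all probes, and Fzd2 had 0.67 on probe 1 and 0.84 on probe 2, more than 94% and 96.5%. The median SD of all probes was 0.16. KI 2 was lowest on both genes and on both Fzd2 probes, at -1.39 for Fzd1 and at -2.33 and -2.40 for Fzd2. Without KI 2, an alternative chosen after seeing the data, the SD over 4 tumours was 0.48 for Fzd1. It was 0.29 for Fzd2 probe 1 and 0.74 for Fzd2 probe 2. Among other receptors it reached 0.41 for Fzd6 and 0.40 for Ryk probe 2, and was 0.39 for Ryk probe 1 and Fzd7 probe 2. KI 2 also stood apart in several marker medians. It was lowest for fibroblasts (-1.84, beside -1.06 to 0.23 in the other KI tumours), endothelium (0.73, beside 1.40 to 2.25) and leukocytes (-1.25, beside -0.64 to -0.20). It was highest for skeletal muscle (1.32, beside -2.13 to -1.23) and for the luminal epithelial median (2.92, beside 2.16 to 2.57). The single luminal markers differed on this. Among KI tumours KI 2 was highest for Krt19 (3.33) but lowest for Krt8 (1.10) and Krt18 (0.90). For Epcam, Cdh1 and Elf5 it was neither highest nor lowest. In KI 1, KI 3, KI 4 and KI 5 the fibroblast medians were -0.56, 0.23, -1.06 and 0.004. Fzd1 measured 0.59, 1.39, 0.65 and 0.24 in the same tumours. The part of tissue makeup in these values was not tested. Without KI 2 the remaining tumours lay above both glands on Fzd2 probe 1 and above both pools for Fzd1. On Fzd2 probe 2 they still overlapped the glands, with KI 5 at -1.82 and gland 2 at -1.80. The spread of Fzd5 and Fzd8 over KI tumours was small, with SDs of 0.06 to 0.13.

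Dye pairs agreed less well in normal gland 2 and, on some probes, in NIC 1. The median size of the Cy5-minus-Cy3 difference over the 16 receptor probes was 0.58 in normal gland 2 and 0.17 to 0.27 in the other 8 RNA samples. The gland's Fzd7 probe 1 value was -0.04 on the Cy5 array and -2.03 on the Cy3 array. Fzd6 was -0.25 and -1.65 and Fzd4 was 2.85 and 1.76 on the same arrays. The gland's Cy5-minus-Cy3 difference was 0.91 and 1.02 on Ryk probes 1 and 2, and 0.92 and 0.88 on Lrp6 probes 1 and 2. The gland mean of these receptors therefore rests on arrays that disagree. Over all probes, the 95th percentile of the size of the dye difference was 1.52 in gland 2 and 1.23 in NIC 1, beside 0.67 to 0.82 in the other 7 samples. In NIC 1 the called Fzd1 measured -0.79 on the Cy5 array and 0.14 on the Cy3 array, and Fzd2 probe 1 measured -0.15 and -1.11. With gland 2 taken from its Cy5 array alone, an alternative chosen after seeing the data, the NIC difference of Fzd7 probe 1 was 0.71 (adjusted p = 0.126), that of Fzd6 was 1.39 (adjusted p = 0.0282) and that of Fzd4 was -1.92 (adjusted p = 0.0742). Lrp6 probe 2 was then called (0.74, adjusted p = 0.0264, limma), while Ryk was not, at 0.56 and 0.29 on probes 1 and 2. The brightest probes called stayed those of Fzd2, Fzd6, Lrp5 and Fzd1. A dye effect of constant sign was seen for Fzd7 probe 2, higher on the Cy5 array in all 9 samples by 0.38 to 0.86, and for Lrp5, at -0.66 to -0.21. The sign was also constant for the called Fzd1, at -0.93 to -0.07, and for Fzd2 probe 1, at 0.006 to 0.96. For Fzd1 and Fzd2 probe 1 the largest gap was that of NIC 1. The mean of a dye pair balances a dye effect only where its size is equal on both arrays, which was not tested.

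**Figure D4:**
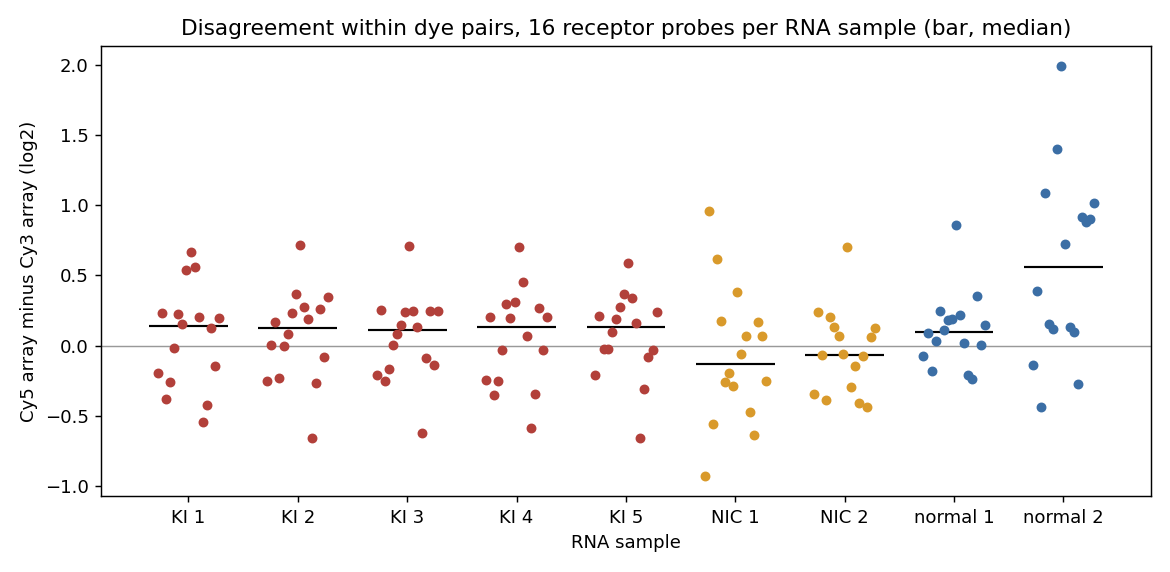
Cy5-array value minus Cy3-array value for the 16 receptor probes in each RNA sample. The vertical axis is a log2 difference, each point is 1 probe and bars are medians. Normal gland 2 holds the largest difference, 1.99 for Fzd7 probe 1.

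The remaining genes of the pathway were counted in the same fit, by brightest probe. The counts of every list stand beside 8.46% of all genes called higher and 9.51% called lower, and none of them was tested. Of 8 other Wnt receptors 2 were called, both higher in NIC pools. The Frizzled Fzd9 measured 3.24 and 2.79 in NIC pools, against -0.31 and -0.24 in glands (adjusted p = 0.0106), and the polarity co-receptor Ptk7 measured 0.93 and 1.10 in pools, against -1.24 and -1.58 in glands (adjusted p = 0.0119). In KI tumours Fzd9 was 2.75 in KI 4 and 0.14 to 0.79 in the other 4. Ptk7 lay between 0.37 and 1.17 in KI tumours, above both glands.

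Of 13 measured genes of receptor turnover and chaperoning 1 was called higher and 2 lower. Csnk1g2, a membrane-bound casein kinase that phosphorylates Lrp6, was higher by 1.16 ± 0.14 (adjusted p = 0.0227). Adgra2 (Gpr124), which helps Wnt7 signal through Frizzleds in brain vessels, differed by -1.26 ± 0.22 (adjusted p = 0.041), and Kremen2, which binds Dkk1 and removes Lrp6 from the surface, by -0.86 ± 0.14 (adjusted p = 0.036). Of 14 measured intracellular transducers 7 were called higher and 0 lower. The scaffold Axin1 was higher by 2.69 ± 0.33 (adjusted p = 0.0242) and the kinase Gsk3b by 2.49 ± 0.18 (adjusted p = 0.013), both of which belong to the complex that degrades beta-catenin. Ctnnb1, which encodes beta-catenin, missed the threshold at 0.25 ± 0.21 on its brightest probe (adjusted p = 0.449), while its other 2 probes differed by 1.24 and 1.41, so its probes disagree on the size.

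Of 24 ligands 0 were called higher and 1 lower, the R-spondin Rspo1, which stabilises Frizzleds at the surface. Rspo1 measured 0.30 and -0.01 in NIC pools, against 3.80 and 4.93 in the glands, a difference of -4.22 ± 0.45 (adjusted p = 0.02). Of 12 secreted inhibitors limma called 0, with 4 at an unadjusted p under 0.05, beside 11201 of 28919 over all genes. Of 8 feedback genes, which beta-catenin signalling is known to induce, 1 was called higher and 3 lower. Nkd2 was higher by 1.10 ± 0.14 (adjusted p = 0.0245). Apcdd1 differed by -5.21 ± 0.58 (adjusted p = 0.0212) and Axin2 by -4.68 ± 0.14 (adjusted p = 0.00936). Axin2, a widely used target of beta-catenin, ranged widely in KI tumours, at -1.61, 1.37, -0.53, 2.52 and 2.11, against -3.05 and -2.97 in the NIC pools and 1.53 and 1.81 in the glands. The medians of the lists were 0.93 for other receptors, -0.19 for turnover genes, 0.88 for transducers, -0.28 for ligands, -0.42 for inhibitors and -1.11 for feedback genes, beside -0.057 for all genes.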

How the data were processed

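Messenger RNA was measured on 2-colour Agilent arrays in 9 RNA samples, each with a dye pair. The authors deposited 2 tables of log2 values, each a ratio of sample to reference. RMA is listed in the submitters' processing notes, its role unstated. Scanner files of the 10 KI arrays hold intensity values and a log10 ratio, written by Feature Extraction per the file headers, and they gave probe names, signal and the scale and direction of the KI table (correlation with the loess of the scanner signals 0.982 to 0.988). Column medians lay between -0.00986 and 0.0238. For the table of glands and NIC pools, scale, centring, direction and spot layout were taken by analogy. On some KI arrays the labelling protocol names the opposite dye from the label field, and the label field was followed.

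Here 2256 control spots were left out and spots of a probe averaged. Probes were named through RefSeq (GRCm38.p6) by accession, current or older symbol. Dye pairs were averaged per RNA sample. NIC was tested against normal with limma 3.58.1 in R 4.3.3 (lmFit, eBayes, two-sided, Benjamini-Hochberg over 41174 probes), after a test on simulated data in which 48 of 200 probes shifted by 2 log2 units were called and 0 others. KI values were compared as levels and ranges with no test. Receptors, lists and markers were chosen with earlier results of these data known. All receptors were named, and of other lists the called genes with the 2 largest rises and falls. The labels name no litters, so p-values cover only the variation among these samples. Alternatives left out samples, used 1 dye, and changed scaling, fit, probes and KI source.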

Additional observations from a re-analysis of the deposited data

How the results depend on the processing

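No paired analysis was possible because the labels give the pools and glands no numbers that pair them. Among the 16 receptor probes, no called difference changed direction. For NIC against normal, 7594 probes were called as reported, 0 to 5051 with 1 RNA sample left out, 2905 on Cy3 arrays alone, 14341 with all 8 arrays and RNA as a random block (correlation within RNA 0.243), 15060 with the spread shared by all 9 RNA samples and 4969 among the brighter probes. Receptor probes called numbered 5 as reported, 0 to 5 with 1 sample left out, 3 on Cy3 arrays, 9 with the block and 8 with the shared spread. Receptor genes called numbered 4 as reported, 0 to 3 with 1 sample left out, 2 on Cy3 arrays (Lrp5 and Fzd4) and 7 with the block. Other Wnt genes called numbered 17 as reported, 0 to 18 with 1 sample left out, 11 on Cy3 arrays, 38 with the block and 29 with the shared spread. In these 4 counts every 0 came from leaving out NIC 1 or NIC 2. Of 15 alternatives each, the call was lost in 6 for Fzd1 (adjusted p 0.00574 to 0.182), 5 for Fzd6 (0.00736 to 0.201), 4 for Fzd2 probe 1 (0.00126 to 0.0973) and 2 for Lrp5 (0.0002 to 0.109), and Fzd4 passed in 7 (0.00315 to 0.194). KI tumours lay above both glands for 3 receptors as reported, for 3 to 5 with 1 sample left out and for 5 on Cy3 arrays. They lay below both glands for 1 as reported, for 1 to 2 with 1 sample left out and for 2 with either scanner-derived ratio (Fzd4 and Fzd5). They lay above both pools for 1 as reported, for 1 to 2 with 1 sample left out, for 2 on Cy3 arrays and for 0 with the mean of a gene's probes, which takes in the second Fzd7 probe. They lay below both pools for 3 as reported for 3 to 4 with 1 sample left out, and for 2 on Cy5 arrays alone (without Fzd8) and with Cy3 arrays alone, either scanner-derived ratio or the mean of probes (each without Fzd2). The cause of the other shifts was not tested. Signal over background was known for KI arrays only, where 15 of 16 receptor probes were well above it in both channels on all 10 arrays.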
